A study of Mus musculus with 8 samples.

Results

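Genes that make, break down, move or sense sphingosine 1-phosphate (S1P) were followed in mouse bone marrow-derived macrophages (BMDM) given sphingosine d18:1, written So(d18:1). The 9 genes were chosen by name for their place in the pathway: the sphingosine kinases Sphk1 and Sphk2, the S1P lyase Sgpl1, the phosphatases Sgpp1 and Plpp3, the exporter Spns2 and the receptors S1pr1, S1pr2 and S1pr4. Earlier results of these data were known when they were chosen, so their counts beside all tested genes are a description. They are 9 of the 55357 genes in the count table, and 8 of them, all but Sphk1, were among the 14514 genes with enough counts to be tested. Marrow from femur and tibia of wild-type C57BL/6J mice was grown with 10 ng/ml M-CSF, the growth factor that drives macrophage differentiation, for 5 to 6 days, after which the cells received 2 μM sphingosine dissolved in methanol, or methanol alone in the control group, for 6 h. Each group had 4 libraries of polyA RNA, numbered 1 to 4, and the labels give neither the age nor the sex of the donors nor which libraries came from which animal. The study's text calls them biologically independent, without naming animals or cultures, and the p-values describe the spread between these libraries. The study's text places this experiment under inflammatory stimulation, while the sample labels name no stimulus. Total counts were 17748397 to 26088609 per library.

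Sphingosine is released from ceramide by ceramidases and is phosphorylated to S1P by the sphingosine kinases, so that the lipid added to these cells is the direct substrate of Sphk1 and Sphk2. S1P has a pair of fates inside the cell, since phosphatases return it to sphingosine and the lyase cleaves it irreversibly into hexadecenal and phosphoethanolamine, the exit from sphingolipid metabolism. S1P that is exported acts on a family of G protein-coupled receptors, which in macrophages and other leukocytes are known for effects on migration, survival and inflammatory output.

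Sgpl1 and S1pr2 were lower after So(d18:1), at 0.900 and 0.848 times their control means, and S1pr1 stood at 1.12 times its control mean without passing the adjusted threshold. Sphk2, the only kinase with more than a few reads, differed by less than the spread between libraries. Because RNA from whole cultures was sequenced, fewer cells of a type and less RNA per cell cannot be told apart here. Of the 8 tested genes, 2 had an adjusted p under 0.05 (edgeR quasi-likelihood F test, Benjamini-Hochberg over all tested genes), both lower, against 8.94% of all tested genes called in either direction, of which 3.87% were higher and 5.07% lower. Of the 8, 3 had an unadjusted p under 0.05, against 23.4% of all tested genes, and the same 3 had ranges that did not overlap between the groups, against 15.0%. None of the 8 passed an unadjusted p under 0.05 with a change of at least 1.5-fold, the rule of the study's methods, which 3.89% of tested genes passed. The log2 fold changes, given as So(d18:1) minus control throughout, had a median of -0.17 over the 8 genes, with 2 above and 6 below 0, beside 0.0036 over all tested genes.

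The DNA just before the starts of the 2 called genes is shown because the study concerns a hypoxia-inducible factor, a family of transcription factors. Their core binding letters include ACGTG, and no other form of the core was searched for. The stretches run 5′ to 3′ on the gene's strand from 250 to 21 bases before the RefSeq start on GRCm38.p6, at chr9:20976814-20977043 (minus strand) for S1pr2 and chr10:61147705-61147934 (minus strand) for Sgpl1, and capitals mark ACGTG on either strand.
S1pr2: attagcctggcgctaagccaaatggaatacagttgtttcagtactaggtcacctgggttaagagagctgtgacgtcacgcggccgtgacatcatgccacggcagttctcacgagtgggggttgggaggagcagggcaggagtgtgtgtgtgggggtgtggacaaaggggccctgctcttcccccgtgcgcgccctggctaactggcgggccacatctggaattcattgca
Sgpl1: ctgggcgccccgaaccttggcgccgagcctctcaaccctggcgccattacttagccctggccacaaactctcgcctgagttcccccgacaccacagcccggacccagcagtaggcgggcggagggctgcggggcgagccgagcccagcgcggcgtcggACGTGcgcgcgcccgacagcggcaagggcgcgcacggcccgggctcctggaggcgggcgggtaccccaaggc
The Sgpl1 stretch held ACGTG once, 92 bases before the start, and the S1pr2 stretch did not hold this form. Of all 32851 windows in the table, which reach from 250 bases before to 50 after a start, 19.6% held ACGTG on either strand. Of the 9 genes, 8 had a window, S1pr1 being without an entry, and 3 of these had at least 1 window with the letters. This count is per gene and the 19.6% is per window, so the 2 are not alike. Besides Sgpl1 these were Sphk2, in 1 of its 2 windows, and Sphk1, in 2 of 5, where the letters lay in CACGTG, which reads the same on both strands and so counts on each. These 2 Sphk1 windows overlap and hold the same CACGTG. A match is a description of letters and says nothing of binding.

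Sphk1 (chr11:116530925-116536674, GRCm38) encodes the mostly cytosolic sphingosine kinase, and its messenger RNA was close to undetected. The 4 control libraries held 0, 0, 2 and 2 of its reads and the 4 So(d18:1) libraries 2, 0, 4 and 1. In each group libraries with and without a read occurred, and 3 reads, the limit that a count of 0 allows, equal 0.116 to 0.168 CPM (counts per 1000000 reads) in a single library. Over each group, 4 of 94186786 control reads and 7 of 84877455 So(d18:1) reads came from Sphk1, a ratio of 1.94 with a 95% interval of 0.494 to 9.05 that covers counting error only. A difference of the size seen for the other members was not detectable at this depth.

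Sphk2 (chr7:45709467-45718002), the kinase found largely in the nucleus and at internal membranes, carried nearly all kinase reads. Its CPM was 82.5, 78.7, 86.3 and 88.0 in control libraries 1 to 4 and 81.2, 81.9, 83.0 and 89.2 in the So(d18:1) libraries. The So(d18:1) values lay almost wholly inside the control range. The means were 83.9 ± 4.15 and 83.8 ± 3.67 CPM (SD, n = 4 each), and the fitted log2 change had a 95% interval of -0.10 to 0.10 (SE 0.049, edgeR adjusted p = 0.9995), which leaves room for a change of that size in either direction. Per exon length Sphk2 made up 99.96% of the summed kinase level in control libraries and 99.91% after So(d18:1). Exons of Sphk2 overlap those of Dbp and Rpl18 on the other strand over 13.0% and 8.97% of their length, and the strand setting of the read counting is not given in the sources used here. Neither neighbour was called, with log2 changes of 0.071 for Dbp and 0.056 for Rpl18 (edgeR adjusted p = 0.647 and 0.554).

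Sgpl1 (chr10:61098642-61147703), the lyase, was the most abundant of the 9 genes and ranked 97th of all tested genes by mean CPM. It stood at 929, 897, 903 and 896 CPM in control libraries 1 to 4 and at 827, 795, 819 and 820 CPM after So(d18:1). Every So(d18:1) library was below every control library, with little spread inside either group. Mean expression fell from 906 ± 15.8 CPM (SD, n = 4) in control to 815 ± 13.7 CPM (SD, n = 4), with a log2 change of -0.15 (SE 0.039, 95% interval -0.23 to -0.071, edgeR adjusted p = 0.0177). The exact two-sided permutation test of the means gave p = 0.0286, the smallest that 4 against 4 libraries can give. The call was lost when control library 1 was left out (edgeR adjusted p = 0.0718) and when So(d18:1) library 2 was left out (edgeR adjusted p = 0.0674), with log2 changes of -0.14 in both. Within a library the ratio of Sgpl1 to Sphk2 per exon length, a measure chosen after the values were seen and given as a description, was 6.89 to 7.71 in control libraries and 6.23 to 6.89 after So(d18:1).

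**Figure D1:**
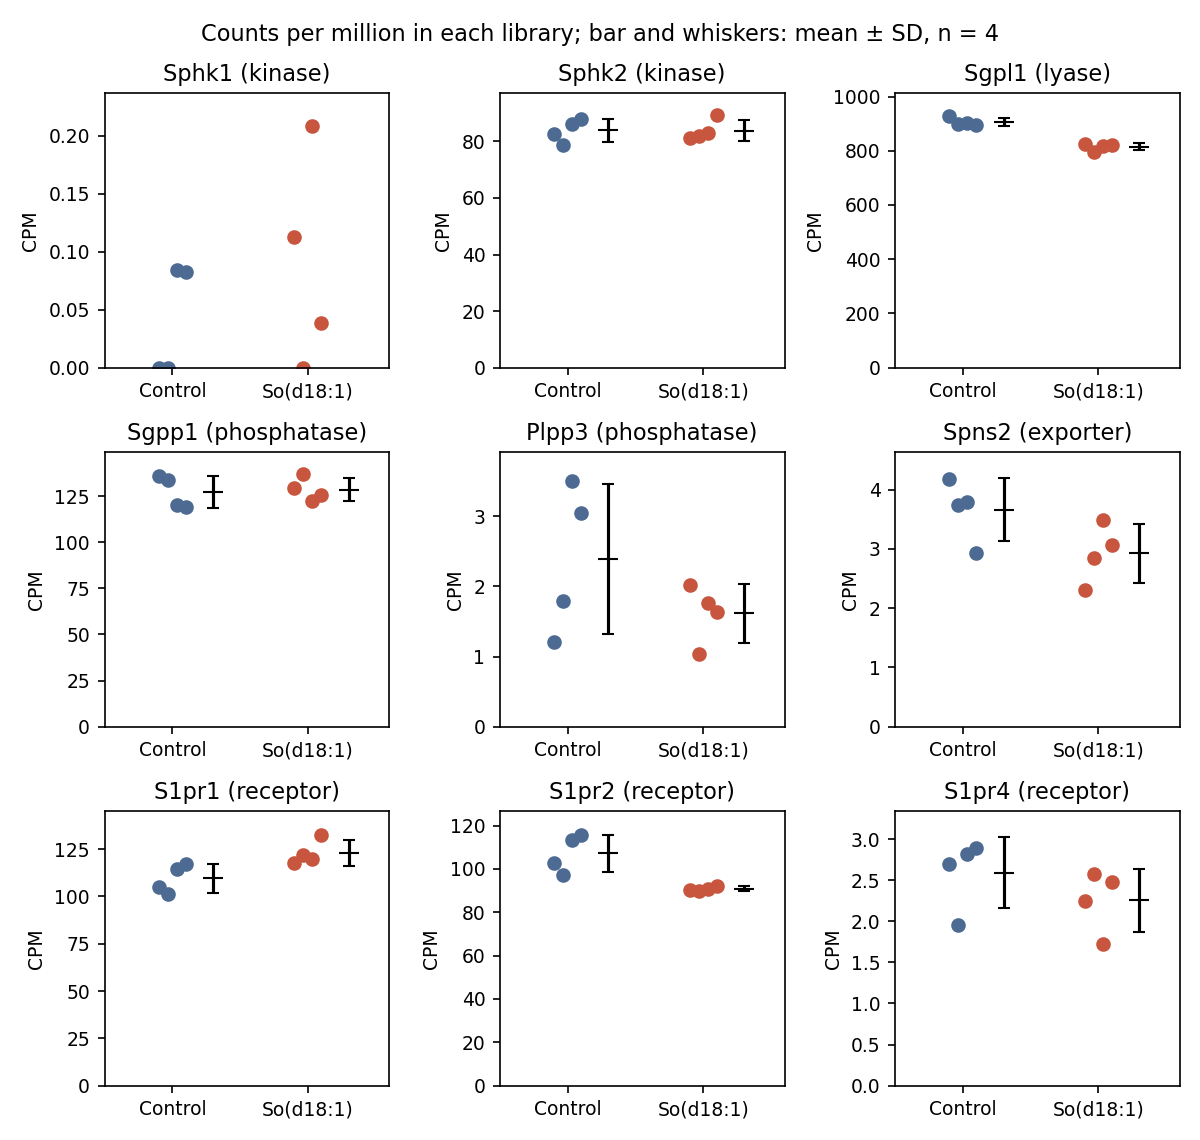
Each panel plots the CPM of 1 gene (y axis, from 0) in the 4 control and 4 So(d18:1) libraries as points, with the mean ± SD (n = 4) as a bar and whiskers beside them except for Sphk1, which has too few reads. The groups are separate for Sgpl1 and S1pr2, which are lower after So(d18:1), and for S1pr1, which is higher.

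Of the genes that take up the products of the lyase, 1 of 9 tested was called (11.1%, beside 8.94% of all tested genes). Aldh3a2, the fatty aldehyde dehydrogenase that oxidises hexadecenal, rose from a control mean of 99.8 ± 2.50 CPM to 114.9 ± 6.24 CPM (SD, 4 libraries each), a log2 change of 0.20 (SE 0.047, edgeR adjusted p = 0.00756), and its ranges did not overlap. Over the 9 genes the median log2 change was 0.037, and the acyl-CoA synthetases and the ethanolamine kinase and transferase genes did not pass.

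The phosphatases, which reverse the kinase step, gave no call. Sgpp1 (chr12:75714249-75735729), the phosphatase of the endoplasmic reticulum that is specific for sphingoid base phosphates, read 136, 133, 120 and 119 CPM in control libraries and 129, 137, 122 and 125 CPM after So(d18:1). Both groups covered nearly the same range. Its means were 127 ± 8.68 and 128 ± 6.17 CPM (SD, n = 4 each), with a log2 change of 0.014 and a 95% interval of -0.092 to 0.12 (edgeR adjusted p = 0.905). Plpp3 (chr4:105157347-105232764), a cell surface enzyme that dephosphorylates several lipid phosphates including extracellular S1P, was low, with 23 to 83 reads per library. It read 1.20, 1.79, 3.50 and 3.05 CPM in control libraries and 2.02, 1.04, 1.77 and 1.63 CPM after So(d18:1). Control libraries 3 and 4 were above all others and control library 1 was among the lowest. The log2 change of -0.58 had the widest interval of the 8 genes, -1.23 to 0.061 (SE 0.30, edgeR adjusted p = 0.265). Plpp2, of the same family as Plpp3 but outside the 9, gave 15.2 ± 0.556 and 16.8 ± 1.36 CPM (SD, n = 4 each) and was not called (edgeR adjusted p = 0.274). Per exon length Sgpp1 held 68.8% of the summed phosphatase level in control libraries and 67.7% after So(d18:1), Plpp2 held 28.0% and 30.2%, and Plpp3 2.35% and 1.53%.

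Spns2 (chr11:72451638-72489904), the transporter that releases S1P from endothelial and some other cells, was also low. It read 4.19, 3.74, 3.79 and 2.93 CPM in control libraries and 2.30, 2.85, 3.49 and 3.07 CPM after So(d18:1). The ranges overlapped because control library 4 was low. The log2 change was -0.32 (SE 0.17, 95% interval -0.67 to 0.034, edgeR adjusted p = 0.268, exact permutation p = 0.0857). Exons of Spns2 share 3.21% of their length with Mybbp1a on the other strand, which had a log2 change of -0.12 (edgeR adjusted p = 0.175). Mfsd2b, the S1P exporter of red cells and platelets, was lower in mean as well, at 3.59 ± 0.865 against 2.47 ± 0.478 CPM (SD, n = 4 each, log2 change -0.55, SE 0.19, edgeR adjusted p = 0.0865). The summed level of the 2 exporters was 5.57 ± 0.316 TPM in control libraries and 4.19 ± 0.36 TPM after So(d18:1) (SD, n = 4 each), where TPM are counts per exon length, scaled to the same sum in every library. This sum was not planned and is a description without a test. Neither exporter was called, and the CPM ranges of each overlapped between the groups. Spns2 held 44.4% to 63.5% of the sum in control libraries, so the SD of the sum does not show the spread of each gene. The ABC transporters, which also carry S1P in some cells, were not called, at control levels of 404 TPM for Abca1, 56.6 TPM for Abcc1 and 7.55 TPM for Abcg2, with log2 changes of -0.082 for Abca1, -0.0031 for Abcc1 and -0.10 for Abcg2 (edgeR adjusted p = 0.285, 0.978 and 0.527).

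Among the receptors S1pr1 and S1pr2 were abundant and had opposite signs. S1pr2 (chr9:20962361-20976781), which couples to Gi, Gq and G12/13 proteins, read 103, 97.2, 113 and 116 CPM in control libraries and 90.4, 89.9, 91.0 and 92.3 CPM after So(d18:1). All So(d18:1) libraries lay in a narrow band below the lowest control library. Means were 107 ± 8.66 CPM in control and 90.9 ± 1.06 CPM after treatment (SD, n = 4 each), and the log2 change was -0.24 (SE 0.052, 95% interval -0.35 to -0.13, edgeR adjusted p = 0.00538, exact permutation p = 0.0286). It was called under each of the 18 other settings tried, with log2 changes between -0.28 and -0.20.

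S1pr1 (chr3:115710433-115715072), the Gi-coupled receptor that guides leukocytes along S1P gradients, read 105, 101, 115 and 117 CPM in control libraries and 118, 122, 120 and 133 CPM after So(d18:1). The lowest So(d18:1) library stood just above the highest control library. The means were 109.6 ± 7.62 and 123 ± 6.64 CPM (SD, n = 4 each), with a log2 change of 0.17 (SE 0.053, 95% interval 0.057 to 0.28). The unadjusted p was 0.00483 (edgeR), the adjusted p 0.0524 and the exact permutation p 0.0286, so that S1pr1 just missed the adjusted threshold, which it passed in 7 of the 18 other settings.

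S1pr4 (chr10:81497747-81500132), a receptor mainly of blood cells, read 2.69, 1.95, 2.82 and 2.89 CPM in control libraries and 2.24, 2.58, 1.72 and 2.48 CPM after So(d18:1). The groups overlapped widely, and the log2 change of -0.19 had an interval of -0.58 to 0.21 (SE 0.19, edgeR adjusted p = 0.603). S1pr3 and S1pr5, the remaining receptors, had 61 and 7 reads over all 8 libraries and were not tested.

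**Figure D2:**
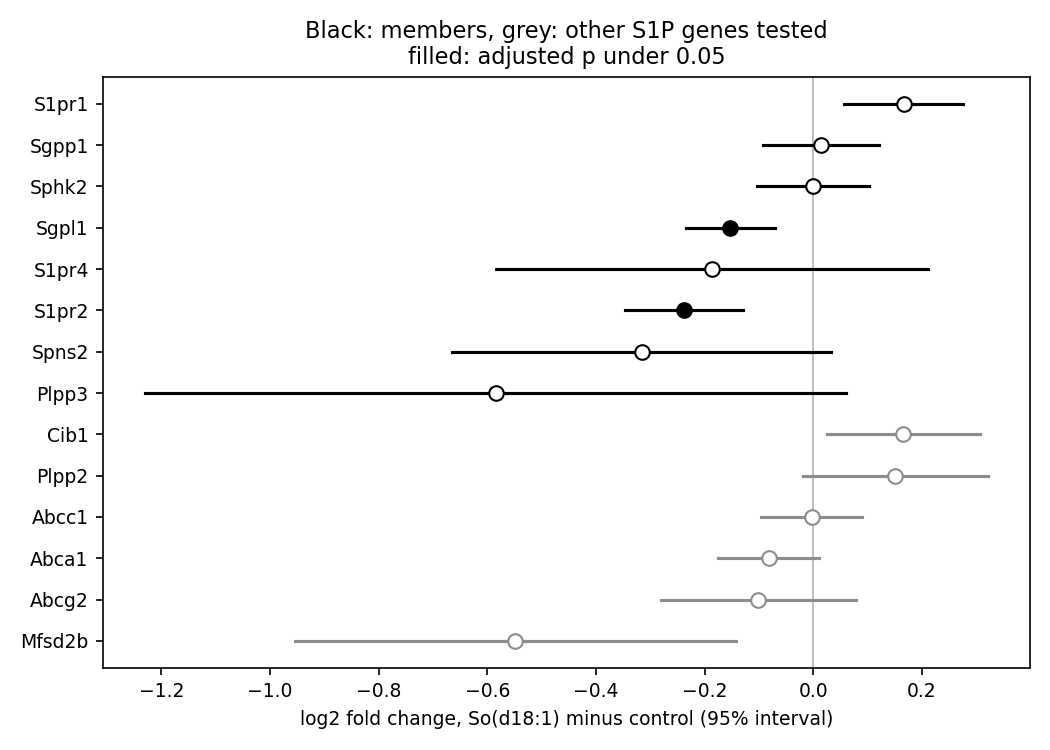
Log2 fold changes of the 8 tested genes (black) and of the 6 other S1P genes tested (grey), So(d18:1) minus control on the x axis, with 95% intervals as lines and filled points for an adjusted p under 0.05. Only Sgpl1 and S1pr2 are filled, at -0.15 and -0.24, and the intervals of the low genes Plpp3, Mfsd2b and S1pr4 are several times wider.

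Per exon length S1pr1 made up 71.1% ± 0.456 of the summed receptor level in control libraries and 76.4% ± 0.65 after So(d18:1), and S1pr2 26.6% ± 0.19 and 21.6% ± 0.769 (SD, n = 4 each). The sum itself was 177 ± 11.2 TPM and 185 ± 4.25 TPM. The ratio of S1pr1 to S1pr2 per exon length, a measure picked after the values were seen and therefore given without a test, was 2.67, 2.73, 2.65 and 2.66 in control libraries 1 to 4 and 3.41, 3.55, 3.44 and 3.76 in the So(d18:1) libraries. The control ratios were close together even though both receptors were higher in control libraries 3 and 4 than in 1 and 2. The ratio was 1.32-fold higher after So(d18:1), a log2 difference of 0.40, which stayed between 0.37 and 0.42 with each library left out in turn. With the longest transcript as the length, control means were 97.3 TPM for S1pr1 and 45.3 TPM for S1pr2, against 125.7 and 47.0 TPM with all exons. The shares and the ratio within a library therefore depend on the length used, which their SD does not cover. The fold between the groups does not depend on it.

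**Figure D3:**
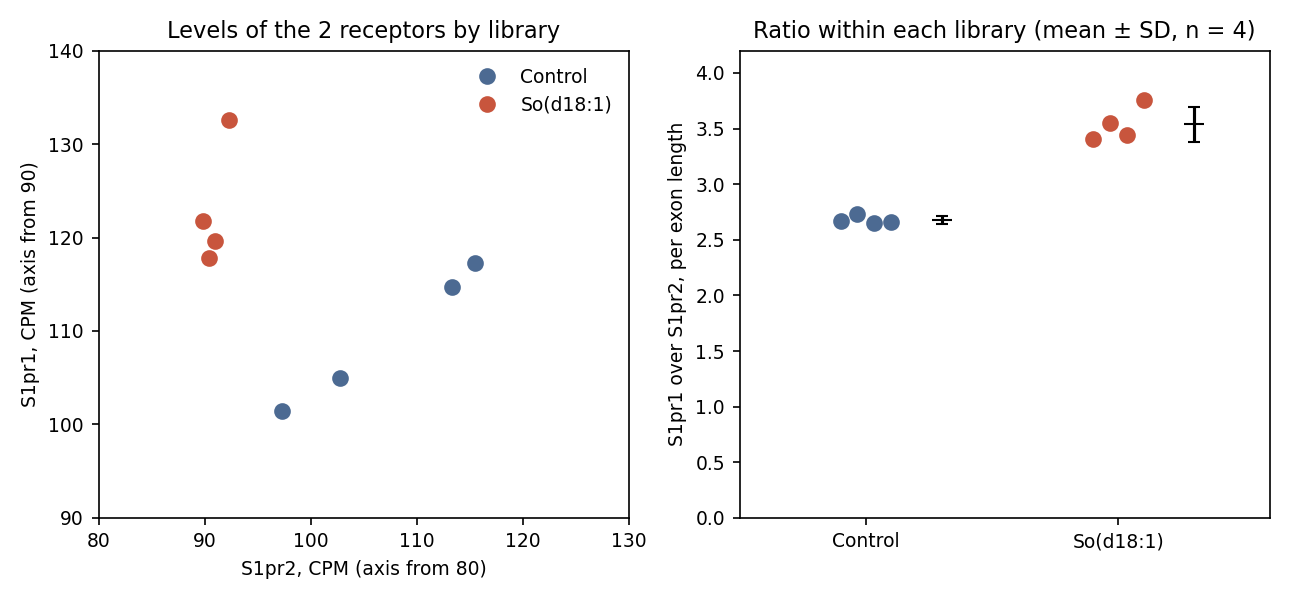
Left, S1pr1 (y axis, from 90 CPM) against S1pr2 (x axis, from 80 CPM) for each library. Right, the ratio of S1pr1 to S1pr2 per exon length in each library with mean ± SD (n = 4), from 2.65 to 2.73 in control and 3.41 to 3.76 after So(d18:1).

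Downstream of the receptors 2 of 19 tested genes for G protein subunits, arrestins and other signalling proteins were called (10.5%, beside 8.94% of all tested genes), both lower, with a median log2 change of -0.016, so that the share is near that of all genes. Gna12, the alpha subunit of G12, fell from 219 ± 13.5 CPM to a mean of 186 ± 8.95 CPM (SD, n = 4 each, log2 change -0.23, SE 0.049, edgeR adjusted p = 0.00404). Arrb2, beta-arrestin 2, which desensitises and internalises such receptors, fell from 445 ± 1.45 CPM in control to 402 ± 20.3 CPM (SD, n = 4 each, log2 change -0.15, SE 0.043, edgeR adjusted p = 0.0366). The call of Arrb2 was lost with library size alone as the scaling and in 7 of the 8 fits that left out a library, all but the one without So(d18:1) library 2, while Gna12 kept its call throughout. Gna12 shares 13.3% of its exon length with Amz1 on the other strand.

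In control libraries the levels per exon length ran in the order Sgpl1, S1pr1, Sgpp1, Sphk2, S1pr2, S1pr4, Spns2, Plpp3 and Sphk1. Sgpl1 lay between 504 and 534 TPM, S1pr1 between 118 and 134 TPM and S1pr2 between 43.2 and 50.5 TPM. Sgpp1, at 72.8 to 84.8 TPM, and Sphk2, at 67.1 to 73.8 TPM, overlapped and cannot be ordered. S1pr4, Spns2 and Plpp3 overlapped between 1.34 and 4.22 TPM. Sphk1 was at or below 0.0605 TPM. With the longest transcript of each gene in place of all its exons as the length, Sgpp1 stood at 103.6 TPM and S1pr1 at 97.3 TPM, so that their order depends on the length used.

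**Figure D4:**
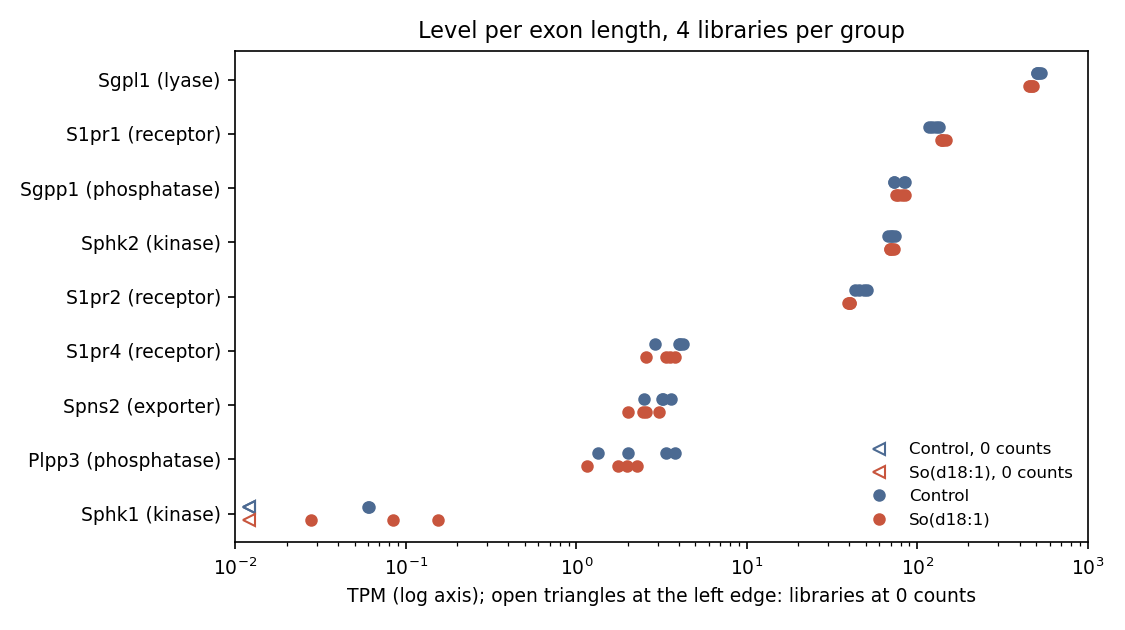
TPM (log x axis) of the 9 genes in each of the 4 control and 4 So(d18:1) libraries, ordered by the control mean, with open triangles at the left edge for libraries in which Sphk1 had no read. Sgpl1 stands above all others, S1pr1, Sgpp1, Sphk2 and S1pr2 follow, and S1pr4, Spns2 and Plpp3 lie below 5 TPM.

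Of the ceramidases and ceramide synthases, which release sphingosine from ceramide and return it, 0 of 8 tested genes were called in edgeR, none had an unadjusted p under 0.05, and DESeq2 and limma-voom called 0 as well. With 8.94% of all tested genes called, a count of 0 among so few says little about these genes. Their log2 changes ran from -0.069 for Asah1, the lysosomal acid ceramidase, to 0.22 for Cers4, with a median of 0.011. Of 28 tested genes for the synthesis, storage and lysosomal breakdown of sphingolipids 5 were called (17.9%, beside 8.94% of all tested genes), 3 higher and 2 lower, with a median of 0.0015. Smpdl3b, a membrane-anchored relative of acid sphingomyelinase, rose from 4.25 ± 0.561 CPM in control to 8.23 ± 1.04 CPM (SD, n = 4 each, log2 change 0.95, SE 0.13, edgeR adjusted p = 6.2e-05). Smpd3, neutral sphingomyelinase 2, fell from 6.07 ± 0.757 CPM in control to 3.51 ± 0.576 CPM (SD, n = 4 each, log2 change -0.81, SE 0.15, edgeR adjusted p = 0.00108). Smpd1, the lysosomal acid sphingomyelinase, and Glb1, the lysosomal beta-galactosidase, rose by log2 changes of 0.24 and 0.15 (edgeR adjusted p = 0.0359 and 0.0471). Smpd1 kept its call in 3 of the 8 fits that left out a library, those without control library 1, So(d18:1) library 1 or So(d18:1) library 3. Glb1 kept its call in 1 of these, without So(d18:1) library 3, and in 6 of the 10 other settings, and lost it with DESeq2 size factors, upper quartile scaling, a minimum of 10 counts and limma-voom. Exons of Smpd3 overlap Prmt7 on the other strand over 4.72% of their length, and those of Glb1 share 5.49% with Tmppe on the same strand. Of the 12 further S1P genes, which include Cib1, a calcium-binding partner of Sphk1 that was not called either (log2 change 0.17, edgeR adjusted p = 0.136), 6 were tested and 0 were called by edgeR, with 2 at an unadjusted p under 0.05, Mfsd2b and Cib1. DESeq2 and limma-voom also called 0 of them. Sgpp2, Plpp1, S1pr3, S1pr5 and Apom had 7 to 65 reads over the 8 libraries and Mfsd2a had none.

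**Figure D5:**
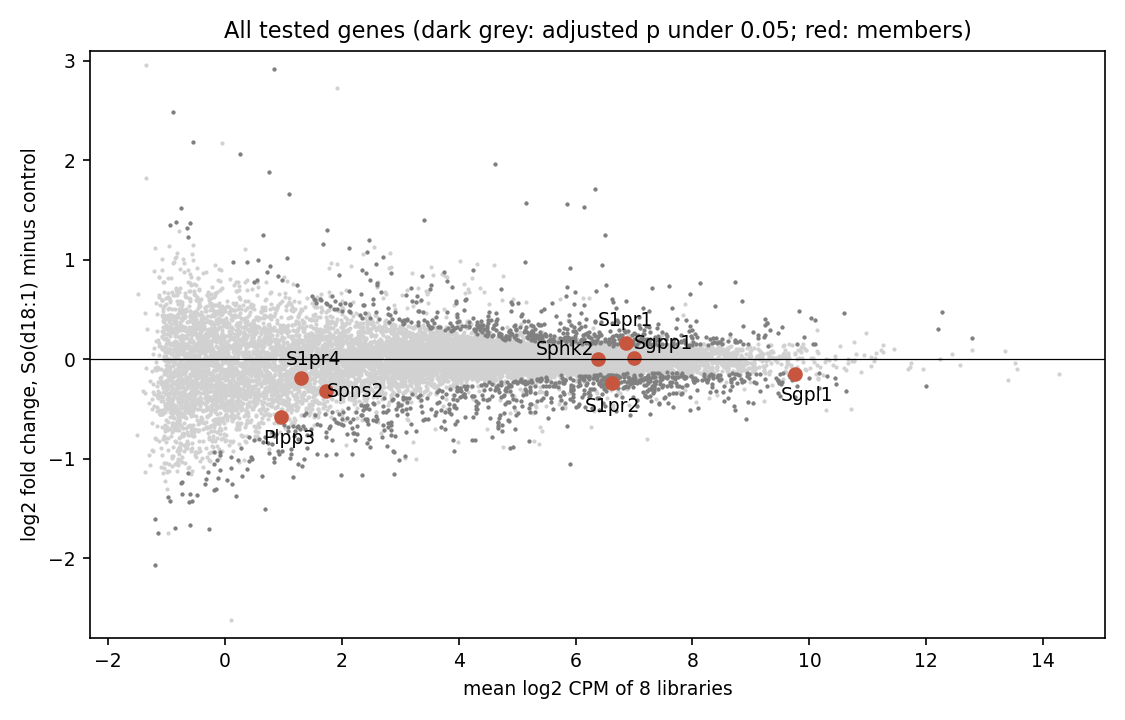
Log2 fold change (y axis) against mean log2 CPM (x axis) for all 14514 tested genes, dark grey where the adjusted p was under 0.05, with the 8 tested members in red. Sgpl1 lies far to the right at -0.15 and the members stay within 0.6 log2 units of 0.

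By the smallest root mean square difference of centred log2 CPM over the 8 libraries, among 11556 genes, the profiles most like that of S1pr2 were those of Eif4a1 (0.037), Gtf2h2 (0.038) and Pla2g15 (0.039). Those most like Sgpl1 were Snap29 (0.011), Maml2 (0.014) and Cd93 (0.017), and those most like S1pr1 were Tmed9 (0.022), Taldo1 (0.023) and Dym (0.029).

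The libraries carried the markers of macrophages, with all 10 markers tested and Csf1r at 6234 ± 98.2 CPM in control and 5986 ± 298 CPM after So(d18:1) (SD, n = 4 each). Of the 10, 3 were called (30%, beside 8.94% of all tested genes), Cd68 and Mertk lower and Itgam higher. Other cell types' markers moved with the groups: the 9 neutrophil and granulocyte precursor genes were all lower, 4 of them called (44.4%, beside 8.94% of all tested genes) and none at 0, with a summed level of 1694 to 2338 CPM in control and 1335 to 1514 CPM after So(d18:1). The 6 B cell genes were all lower, Pax5 alone being called (16.7% of the 6), with sums of 118.9 to 144.3 and 99.6 to 125.8 CPM. The 8 T and NK cell genes summed to 20.5 to 25.6 and 13.8 to 19.0 CPM, nearly all of it Cd4, which fell, while Cd3e had 0 to 2 reads per library. Pf4, on the megakaryocyte list, rose from 216 ± 12.9 CPM in control to 366 ± 36.9 CPM (SD, n = 4 each, edgeR adjusted p = 2.1e-06), the only one of the 4 tested genes of its list to be called. It was also the only 1 of them that was higher, while 3 were lower. The median log2 change of the list was -0.36, and 1 of the lower genes had an unadjusted p under 0.05 in edgeR. The endothelial genes, of interest for Spns2, S1pr1 and Plpp3, gave 0 of 6 tested called, with sums of 38.2 to 47.9 and 33.3 to 41.0 CPM and Cldn5 at 0 or 1 read per library, and the fibroblast genes gave 0 of 6, with sums of 8.56 to 12.4 and 7.80 to 10.4 CPM. The 5 dendritic genes tested gave 0 calls, with sums of 18.8 to 26.4 and 17.3 to 21.5 CPM, the erythroid genes summed to at most 1.32 CPM, and the mast cell and basophil genes to 5.20 to 6.77 and 3.75 to 5.68 CPM. With 8.94% of all tested genes called, counts of 0 among 5 or 6 genes say little about those lists. The part of these cells in the changes of S1pr1, S1pr2, S1pr4 and Sgpl1 was not tested.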

How the data were processed

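PolyA RNA from 8 libraries was sequenced by the authors, who used Trim Galore 0.6.7 for read trimming, HISAT2 2.2.1 with the mm10 genome for alignment and featureCounts 2.0.1 for read counting, per the submitters' processing notes and the study's methods. The authors deposited 1 table of raw read counts per gene, with no normalization. Whether counting used strand or multimapped reads is not given in the sources used here. The counts were scaled by TMM, filtered with filterByExpr and tested with the robust quasi-likelihood F test of edgeR 4.0.16 (R 4.3.3), So(d18:1) against control, n = 4 each, with Benjamini-Hochberg adjustment over 14514 genes and a threshold of 0.05. CPM use TMM-scaled totals. Symbols were matched from GENCODE M21 on GRCm38 for 52081 of 55357 identifiers, and TPM were computed from the union of exons. Promoter windows came from RefSeq on GRCm38.p6. The steps were tested on counts drawn anew for the 14514 tested genes, of which 196 were changed. Of these 196, 143 (73%) were called, and 19 unchanged genes were called too. DESeq2 1.42.0 and limma 3.58.1 served as alternatives, beside other scalings, filters, edgeR tests, a replicate block and 8 fits with a library left out. The 9 genes and all lists were chosen with earlier results of these data known. Of the pathway lists, genes past the threshold were named, up to 6 per list, and of the further S1P genes all; 1 called gene of the sphingolipid list is not reported here. The 3 closest profiles were named for the 3 members of smallest p. The exact permutation tests, two-sided, were made for the 9 members and are not adjusted. Libraries of a group differed by more than counting noise, so none was treated as a duplicate. The chi-square per gene was 2.76 to 12.2 between control libraries and 2.82 to 7.62 between So(d18:1) libraries. Control libraries 1 and 2 (2.76) and 3 and 4 (3.78) were the closest control pairs. Such an excess cannot show whether libraries came from separate animals or cultures, which was not tested. Intervals for Sphk1 cover counting error only.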

Additional observations from a re-analysis of the deposited data

How the results depend on the processing

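Across 10 other settings and 8 fits that each left out a library, S1pr2 stayed below the threshold of 0.05 in adjusted p (highest 0.0325), and Plpp3, S1pr4 and Spns2 kept their direction and were not called, though with a library left out Plpp3 ran from -0.79 (without control library 1) to -0.34 (without control library 3) on the log2 scale, S1pr4 from -0.30 (without control library 2) to -0.078 (without So(d18:1) library 3) and Spns2 from -0.41 to -0.22. Sgpl1 kept its direction and lost its call without control library 1 (0.0718) or So(d18:1) library 2 (0.0674). S1pr1 was called with library size alone (adjusted p = 0.0396), with no filter (0.0138), in the edgeR exact (0.0478) and likelihood ratio tests (0.0456), with a replicate block (0.0187), and without control library 3 (0.0387) or 4 (0.0357). Sphk2, near 0 throughout, changed sign to 0.0062 with library size alone, 0.0041 with no filter, 2.7e-05 in the edgeR exact and likelihood ratio tests and 0.0016 in limma-voom, and ran from -0.032 to 0.025 with a library left out, where Sgpp1 ran from -0.016 to 0.050. With a library left out the members called were 1 to 3, all genes called 815 to 1370 (815 without So(d18:1) library 2 and 1298 with all), further S1P genes 0 to 1 (Mfsd2b, without control library 2), sphingolipid genes 3 to 5 and receptor signalling genes 1 to 2. The rule of an unadjusted p with a 1.5-fold change called 564 genes and 0 members. Without the filter 1 further S1P gene (Mfsd2b) and 5 receptor signalling genes were called, and 1 of the latter with library size alone. Correlations between the deviations of same-numbered libraries were -0.0035, 0.10, 0.033 and 0.0091 for numbers 1 to 4. The largest with another number were 0.053, 0.053, 0.11 and 0.11, so number 2 exceeded its own. The main fit did not treat the numbers as pairs. With the replicate block 1784 genes were called, against 1298 without it, among them 3 members and 4 receptor signalling genes. Whether the numbers mark pairs or a batch was not tested. Depth limits Sphk1, with 0 to 4 reads per library.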
